A study of Mus musculus with 3 samples.

Results

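Mesothelial cells are the flat epithelial cells that cover the surfaces of the diaphragm. In the 3 single-cell RNA-Seq libraries of mouse costal diaphragm they were taken as the barcodes with at least 3 UMIs (unique molecular identifiers, each marking 1 captured mRNA molecule) of *Msln*, *Upk3b* and *Lrrn4* together and with no UMI of *Ptprc*, the leukocyte gene, or *Pecam1*, the endothelial gene. This rule found 161 of 12275 barcodes. They were set beside the fibroadipogenic progenitors (FAPs), the *Pdgfra*-expressing stromal cells of muscle, taken as barcodes with at least 1 UMI of *Pdgfra*, at least 3 UMIs of *Dcn*, no UMI of *Ptprc* and no place among the mesothelial barcodes. That rule found 6082 barcodes. Both classes were cut from the same UMI counts that are described here, so the 7 genes of the rules are given as a description only.

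The libraries came from male C57BL/6J mice on a control diet (WT CD), from male C57BL/6J mice on a high-fat diet that drew 45% of its calories from lipid (WT HFD), and from mice without *Thbs1* (B6.129S2-Thbs1tm1Hyn/J, a whole-body knockout) on the same high-fat diet (KO HFD). Every group ate normal chow until 2 months of age and then its diet for 6 months. The study pooled 2 mice in each library, so each group was 1 sample, no difference between libraries had a replicate check, and no p-value was computed for one. The cells were released with collagenase II, dead cells were removed by flow cytometry with DAPI, and the samples were isolated on the same day. The WT CD library held 34312860 UMIs over 4132 barcodes, the WT HFD library 31967976 over 3774 and the KO HFD library 36478779 over 4369.

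The mesothelium is a single sheet of cells on a thin basement membrane that lines the pleural, pericardial and peritoneal cavities. It arises from the coelomic epithelium, keeps the transcription factor *Wt1*, and expresses genes of epithelial cells (keratins, junction proteins, apical microvilli) together with genes of mesenchymal cells. The sheet is known to secrete a lubricating fluid, to take part in the defense of the serous cavities and to regulate fibrin on its surface. On the diaphragm it faces the pleural cavity on one side and the peritoneal cavity on the other, and the libraries do not tell these surfaces apart.

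The 3 markers were sparse outside the class. *Msln* encodes mesothelin, a glycosylphosphatidylinositol-anchored surface protein, *Upk3b* a uroplakin and *Lrrn4* a leucine-rich repeat membrane protein. *Upk3b* stood at 1572 counts per 1000000 UMIs (CPM) of the summed mesothelial barcodes in WT CD, 1304 in WT HFD and 1348 in KO HFD, *Msln* at 810, 882 and 1140, and *Lrrn4* was found in 153 of the 161 barcodes. In FAPs *Upk3b* reached 0.373 CPM and *Msln* 0.0711. The summed marker count of a mesothelial barcode ran from 3 to 164 UMIs with a median of 26, 141 barcodes had 10 or more, and 137 had all 3 markers. At the threshold, 3 barcodes lay just inside with 3 UMIs and 6 lay just outside with 2, while 12060 barcodes had none. A further 11 barcodes had 3 or more marker UMIs but also UMIs of *Ptprc* or *Pecam1* and were left out.

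The barcodes chosen by the rule also lay together when the genes of the mesothelial rule were removed. Leiden clustering of all barcodes without these 5 genes gave 28 clusters, and 159 of the 161 barcodes fell in 1 cluster of 186. That cluster held 47 barcodes of WT CD, 88 of WT HFD and 51 of KO HFD, and 32, 80 and 47 of them met the rule. Of the 27 other barcodes of that cluster, 10 had UMIs of *Ptprc* or *Pecam1* and 17 had fewer than 3 marker UMIs. Scrublet called 4 of the 161 barcodes doublets, 1 in WT HFD and 3 in KO HFD. Another 23 met the FAP rule as well, 4 in WT CD, 12 in WT HFD and 7 in KO HFD, and 14 of these 23 had a single UMI of *Pdgfra*. These 23 barcodes held *Krt19* at 702 CPM and the FAP gene *Gsn* at 1906 CPM, whereas the other 138 held *Krt19* at 1072 CPM and *Gsn* at 283 CPM, beside 17159 CPM in FAPs. Whether they are mixed droplets was not tested. No mesothelial barcode sequence occurred in another library, although 16 barcode sequences of all cells did.

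**Figure D1:**
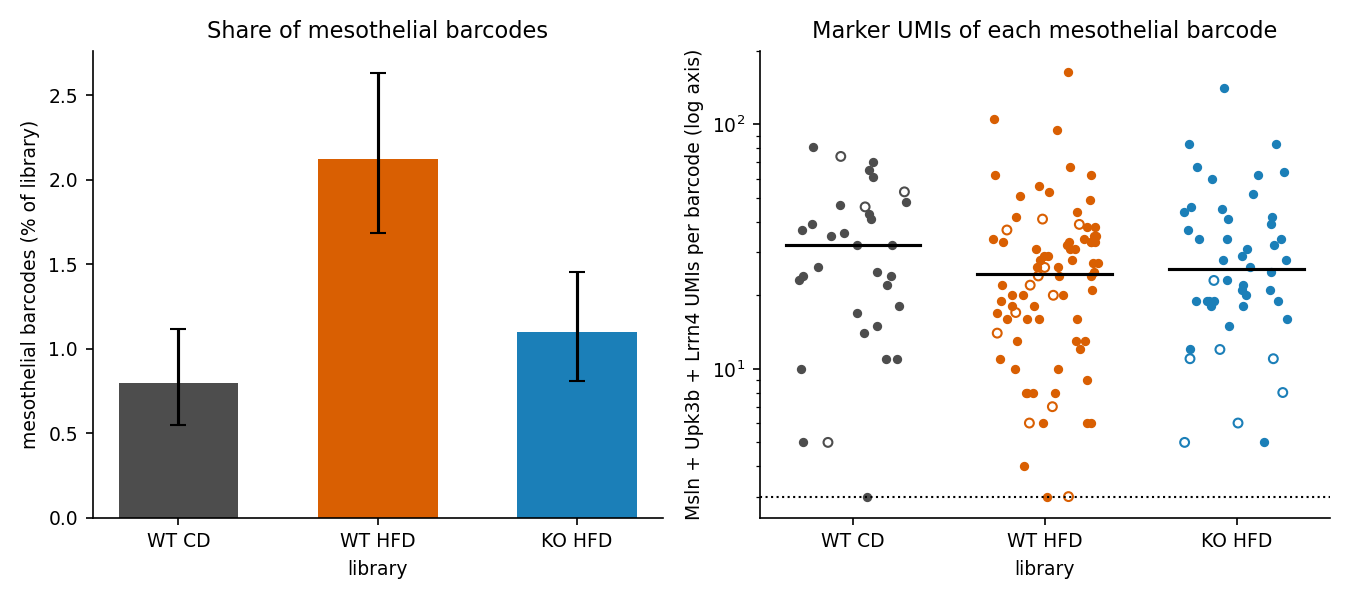
Left, mesothelial barcodes as a percentage of all barcodes of each library, with exact binomial 95% intervals (1 library per group). Right, summed UMIs of the 3 markers in each mesothelial barcode (log axis), with a line at the median, a dotted line at the threshold of 3 and open circles for barcodes that also met the FAP rule. The WT HFD share of 2.12% lies above the intervals of the other libraries, and the median marker counts are 32, 24.5 and 25.5.

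The share of mesothelial barcodes differed between libraries. There were 33 in WT CD, 80 in WT HFD and 48 in KO HFD. These were 0.799% of the WT CD barcodes (exact Clopper-Pearson 95% interval 0.550 to 1.12), 2.12% of the WT HFD barcodes (1.68 to 2.63) and 1.10% of the KO HFD barcodes (0.811 to 1.45). The WT HFD interval did not overlap the others, and the WT CD and KO HFD intervals overlapped. Intervals cover counting error only, not differences between mice or in how much of the surface was recovered. For each 100 FAPs there were 1.63, 4.36 and 2.16 mesothelial barcodes, while FAPs made up 49.0, 48.6 and 50.8% of the libraries. With every barcode thinned to 3000 UMIs the shares were 0.896, 2.18 and 1.13%, and the median depth of mesothelial barcodes was 10471, 10088 and 9027 UMIs.

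To find what set mesothelial cells apart from FAPs, UMIs were summed per class and library and tested with edgeR's quasi-likelihood test with the library as a block, over 13451 genes (Benjamini-Hochberg FDR under 0.05). Mesothelial barcodes were higher in 2072 genes (15.4% of those tested) and lower in 2608 (19.4%). At 4-fold or more, 844 genes were higher and 910 lower. The balance depended on the scaling: without TMM scaling 2634 genes were higher and 1974 lower, and the median log2 ratio of all genes moved from -0.08 to 0.09, so ratios near 0 change sign with the scaling. The test describes 2 classes over 3 libraries of pooled mice, and its p-values carry no comparison of diets or genotypes. They do not measure the spread between mice. The SE given with a log2 ratio is the absolute ratio divided by the square root of the test's F statistic.

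The 15 named genes with the largest ratio had between 0 and 159 UMIs in all FAPs together, and the gene with 159, *Nkain4*, was found in 1.27% of FAPs. *Muc16*, the membrane mucin CA125, stood at 336, 474 and 533 CPM in WT CD, WT HFD and KO HFD and had no UMI in any FAP. With 3 counts over all FAPs in place of 0 it was 8643-fold higher under this class rule. When each of the 3 markers was required, the fitted log2 ratio of *Muc16* went from 14.92 to 12.31. *Slpi*, a secreted inhibitor of leukocyte serine proteases, stood at 2581, 6139 and 8543 CPM against 3.02, 0.959 and 2.99 in FAPs, or 2561-fold higher (counting interval 2159 to 3062). Mesothelial barcodes held 92.0% of all *Muc16* UMIs of the 3 libraries but 20.5% of *Slpi*, which stood at 917 CPM in barcodes of neither class. *Krt19*, an intermediate filament protein of simple epithelia, stood at 1017, 1061 and 950 CPM and was 1638-fold higher (1174 to 2360). *Krt18* and *Krt8*, which pair with each other in simple epithelia, stood at 392, 415 and 500 CPM and at 286, 354 and 327 CPM, with 4 and 5 UMIs in all FAPs together. *Gpm6a*, a membrane glycoprotein, was 2136-fold higher (1463 to 3250), and *Cxadr*, the junctional coxsackievirus and adenovirus receptor, 737-fold (486 to 1172). The others were the uroplakin *Upk1b*, *Chst4*, *Clic3*, *Wfdc2*, the endocytic receptor *Lrp2*, *Lgals2*, *Pkhd1l1* and *Nkain4*. The naming rule asked for the same direction in each of the 3 libraries. With every barcode thinned to 3000 UMIs, *Krt19* was found in 86.2% of mesothelial barcodes and *Muc16* in 62.5%, and *Muc16* in no B cell, the class used here for free RNA in the droplets (137 barcodes with 3 or more UMIs of *Cd79a*, with a median depth of 9280 UMIs beside 9956 in the mesothelial class).

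To show the regulatory sequence next to the start of such genes, the 250 bases before the start site listed in RefSeq (GRCm38.p6) are given for the 3 of the 15 with the most UMIs among those with a single listed start. An entry was found for 10 of the 15 genes. Capitals mark GATAA on either strand (TTATC where it lies on the other strand), the letters bound by GATA factors, since *Gata6* was among the transcription factors measured here. The windows lie at chr2:164356508-164356757 (*Slpi*, minus strand), chr9:18674604-18674853 (*Muc16*, minus strand) and chr15:102027966-102028215 (*Krt18*, plus strand).
Slpi: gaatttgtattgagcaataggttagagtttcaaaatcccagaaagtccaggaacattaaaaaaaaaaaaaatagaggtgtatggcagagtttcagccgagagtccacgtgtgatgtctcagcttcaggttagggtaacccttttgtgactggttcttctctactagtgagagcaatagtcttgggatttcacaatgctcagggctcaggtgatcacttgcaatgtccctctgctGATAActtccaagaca
Muc16: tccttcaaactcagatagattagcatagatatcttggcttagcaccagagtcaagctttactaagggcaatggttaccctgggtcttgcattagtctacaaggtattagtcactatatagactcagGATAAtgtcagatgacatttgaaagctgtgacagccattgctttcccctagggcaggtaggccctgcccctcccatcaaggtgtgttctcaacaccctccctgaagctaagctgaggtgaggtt
Krt18: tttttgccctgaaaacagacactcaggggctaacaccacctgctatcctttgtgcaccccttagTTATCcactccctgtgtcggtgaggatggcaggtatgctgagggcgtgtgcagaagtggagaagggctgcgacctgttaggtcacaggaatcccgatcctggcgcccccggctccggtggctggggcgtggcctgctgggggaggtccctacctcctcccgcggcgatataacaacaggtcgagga
GATAA or TTATC occurred in the 250 bases of 5 of the 10 genes with an entry, and in 22.6% of all 32851 promoter windows of this length. TATAAA was found in 1 of the 10 genes (12.4% of all windows), GGAATG, the letters of TEAD factors, in 1 (12.6%), and CCAAT in none (33.8%), each on either strand and with no overlap among the matches shown. A match is a run of letters, not a site shown to be bound.

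The 10 named genes farthest below FAPs were *Thbs4*, *Mfap4*, *Cilp*, *Aspn*, *Pi16*, *Ctsk*, *Postn*, *Myoc*, *Ly6c1* and *Thbs2*. *Pi16*, a marker of adventitial fibroblasts, stood at 28.4, 17.5 and 21.6 CPM in mesothelial barcodes and at 2267, 2448 and 2245 CPM in FAPs, and 8 mesothelial barcodes had a UMI of it. *Thbs4*, a thrombospondin of tendon and muscle matrix, was found in 3 mesothelial barcodes and stood at 895, 923 and 730 CPM in FAPs.

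**Figure D2:**
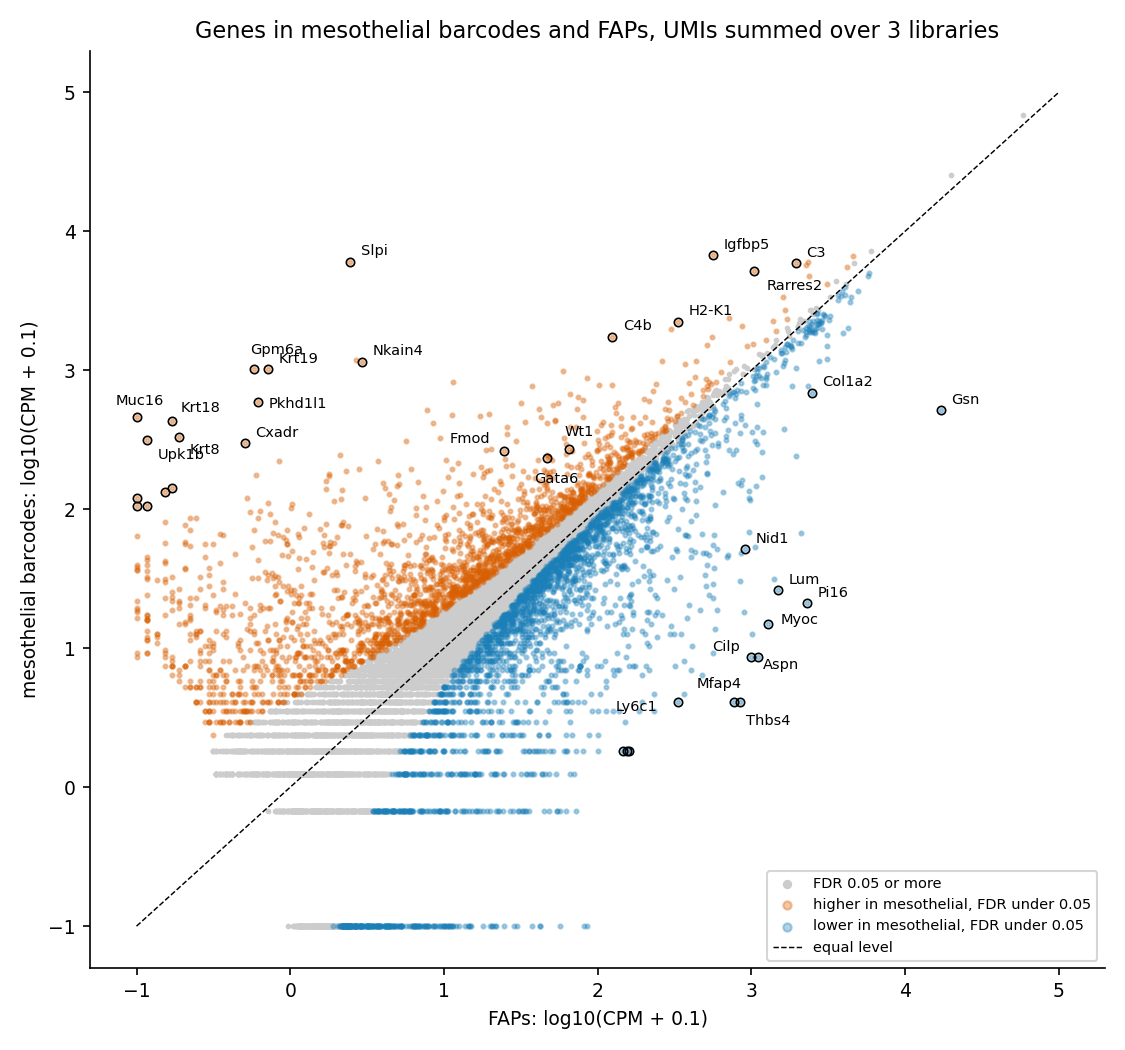
Level of every tested gene, as log10(CPM + 0.1) of UMIs summed over 3 libraries, in FAPs (horizontal) and mesothelial barcodes (vertical). Orange and blue points passed FDR 0.05 in edgeR's test, the dashed line marks equal levels, and black circles mark the named genes and further examples. *Slpi* and the keratins stand far above the line, and *Gsn*, *Pi16* and *Thbs4* far below it.

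Of 15 genes of mesothelial identity outside the rule, 14 could be tested and all 14 were higher. Their median log2 ratio was 10.26 beside -0.08 for all genes. *Calb2*, calretinin, a classical marker of human mesothelium, had no UMI in any mesothelial barcode. *Wt1* stood at 263, 280 and 270 CPM against 71.6, 55.2 and 67.4 in FAPs (log2 ratio 1.92 ± 0.12 SE, adjusted p = 2.01e-56). Of 16 coelomic transcription factors 14 were tested, 9 were higher and 2 lower. *Gata6* stood at 256, 232 and 223 CPM (log2 ratio 2.18 ± 0.13), *Osr1* at 397, 320 and 427 CPM (1.74 ± 0.11) and *Bnc1* at 72, 86 and 80 CPM (10.06 ± 0.47). *Wt1*, *Gata6* and *Osr1* were therefore shared with FAPs at a lower level there, while *Bnc1* and *Isl1* were near absent from FAPs, at 0.0533 and 0.107 CPM. *Tcf21*, a factor of epicardium-derived fibroblasts, had no UMI in mesothelial barcodes and 3.23 CPM in FAPs.

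Of 22 keratin and junction genes 18 were tested and 17 were higher, with *Jup* alone not passing (log2 ratio -0.12 ± 0.16). The claudin *Cldn15* stood at 403, 349 and 535 CPM against 8.44 over all FAPs, and *F11r*, junctional adhesion molecule A, at 199, 196 and 170 CPM against 2.22. *Ocln* and *Krt5*, the keratin of stratified epithelia, had no UMI in any mesothelial barcode, and *Cdh1*, E-cadherin, was found in 2 barcodes. N-cadherin, *Cdh2*, stood at 21, 13 and 20 CPM. Of 13 apical genes 12 were tested, 8 were higher and 3 lower. *Ezr*, the ezrin that links microvilli to actin, stood at 446, 646 and 566 CPM (log2 ratio 3.95 ± 0.11), its partner *Slc9a3r1* at 258, 321 and 339 CPM (5.62 ± 0.15) and the water channel *Aqp1* at 209, 235 and 294 CPM (6.77 ± 0.18). *Msn*, moesin, and *Cd9* were lower, at log2 ratios of -1.11 ± 0.14 and -1.79 ± 0.10.

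Complement and defense genes summed to 11237, 17427 and 21202 CPM in the mesothelial barcodes of WT CD, WT HFD and KO HFD, against 4375 CPM over all FAPs. The list includes *Slpi*, and without it the sums were 8656, 11288 and 12658 CPM, against 4372 CPM. Of 18 complement and defense genes 16 were tested, 9 were higher and 4 lower. *C3*, the central component of complement, stood at 4762, 6038 and 6637 CPM against 1940 over all FAPs (log2 ratio 1.40 ± 0.08). *C4b* stood at 994, 1879 and 2097 CPM (3.55 ± 0.09), *C2* at 550, 443 and 466 CPM (5.29 ± 0.12) and factor B, *Cfb*, at 423, 556 and 741 CPM (3.19 ± 0.11). The complement regulator *Cd55* was lower (-1.98 ± 0.13). The siderophore-binding *Lcn2* stood at 248, 123 and 270 CPM against 11.1 over all FAPs. Class I antigen presentation went the same way: of 12 interferon and MHC class I genes, all tested, 10 were higher and 2 lower, with *H2-K1* at 2338, 2314 and 2056 CPM (2.56 ± 0.09) and *B2m* at 1773, 1783 and 1654 CPM (1.47 ± 0.08). Chemokines went the other way. Of 16 cytokines and chemokines, all tested, 10 were lower and 3 higher, and *Cxcl1*, *Cxcl12* and *Ccl11* had log2 ratios of -5.12 ± 0.17, -4.50 ± 0.26 and -4.98 ± 0.20. The alarmin *Il33* was higher, at 333, 231 and 204 CPM (0.86 ± 0.11).

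Secreted modulators and retinoid genes were mixed. *Rarres2*, which encodes the adipokine chemerin and is named for its response to retinoids, stood at 5939, 4809 and 5136 CPM against 1038 over all FAPs (log2 ratio 2.17 ± 0.08). Of 17 retinoid genes 15 were tested, 4 were higher and 6 lower. The retinoic acid-producing *Aldh1a1* and *Aldh1a2* were higher (1.52 ± 0.13 and 2.27 ± 0.13), and the retinoic acid receptors *Rara* and *Rarg* were lower. Of 21 Wnt, BMP and IGF modulators 19 were tested, 6 were higher and 10 lower. *Igfbp5*, a binding protein for insulin-like growth factors, stood at 3683, 8010 and 7064 CPM against 564 over all FAPs (3.23 ± 0.08). *Rspo1*, an R-spondin that amplifies Wnt signals, stood at 493, 396 and 460 CPM (2.93 ± 0.11) and *Wnt4* at 108, 114 and 135 CPM (2.54 ± 0.16). *Rspo3*, *Bmp4* and *Igf1* were lower.

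Genes of the interstitial matrix were lower almost throughout. Of 22 interstitial matrix genes, all tested, 21 were lower and 1 was higher, with a median log2 ratio of -2.82. *Col1a2* stood at 797, 702 and 590 CPM against 2491 over all FAPs (log2 ratio -2.03 ± 0.09), *Col3a1* at 1448, 1593 and 1330 CPM (-1.27 ± 0.08) and *Lum* at 36, 23 and 24 CPM (-5.99 ± 0.14). The exception was *Fmod*, fibromodulin, a small proteoglycan, at 323, 228 and 272 CPM against 24.5 (3.28 ± 0.13). *Dcn*, a gene of the FAP rule, was found in all 161 mesothelial barcodes. Of 22 basement membrane genes 20 were tested, 10 were lower and 6 higher. The common chains *Col4a1*, *Lamc1* and nidogen *Nid1* were lower (-3.72 ± 0.15, -2.95 ± 0.15 and -4.32 ± 0.13), and *Col4a6*, *Lama3*, *Lama5*, *Nid2*, *Agrn* and *Col18a1* were higher. Of 11 genes of mesenchymal transition, all tested, 6 were lower and 3 higher, among them *Acta2* at 75, 69 and 37 CPM against 10.1 (2.52 ± 0.23). *Snai2* and *Snai1* were found in 3 and 14 barcodes.

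Of 21 thrombospondin and TGF-β genes, all tested, 18 were lower and none higher, and the 3 that did not pass were *Tgfb3*, *Ltbp2* and *Ltbp3*. *Thbs1*, the gene deleted in the KO mice, stood at 26, 46 and 74 CPM in WT CD, WT HFD and KO HFD, with UMIs in 5, 8 and 14 barcodes. FAPs held *Thbs1* at 199, 236 and 229 CPM in the same libraries. The reads come from the 3′ end of transcripts, so UMIs in the KO HFD library check neither the deletion nor the label. *Ccn2*, a TGF-β target that encodes connective tissue growth factor, stood at 3, 6 and 24 CPM against 412 (-5.52 ± 0.20). *Cd47*, a thrombospondin receptor, stood at 369, 391 and 317 CPM (-0.76 ± 0.10).

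Surface functions ascribed to the mesothelium were represented unevenly. Of 8 lubrication and hyaluronan genes 7 were tested, 5 were lower and 1 higher, and the hyaluronan synthase *Has2* had no UMI in mesothelial barcodes while *Has1* stood at 72, 70 and 84 CPM against 150. Of 13 genes of fibrinolysis and coagulation 12 were tested, 6 were lower and 4 higher. Thrombomodulin, *Thbd*, stood at 330, 265 and 229 CPM (log2 ratio 1.26 ± 0.11), and the plasminogen activator *Plat* at 108, 106 and 112 CPM (-1.06 ± 0.13). Of 16 fatty-acid genes 15 were tested, 4 were higher and 4 lower, with *Fabp5* at 413, 398 and 363 CPM (3.75 ± 0.12), the uncoupling protein *Ucp2* at 134, 202 and 225 CPM (4.79 ± 0.17) and *Lpl*, lipoprotein lipase, at 26, 32 and 6 CPM (-4.85 ± 0.17). Of 12 vascular and lymphatic growth factors 10 were tested, 2 were higher and 4 lower, and *Vegfa* stood at 15, 23 and 33 CPM (-1.91 ± 0.21).

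Genes that answer to tissue digestion and genes of other cells were followed in the same way. Of 14 immediate early genes, all tested, 11 were lower and 1 higher, and *Fos* stood at 1750, 1971 and 2291 CPM against 4276 over all FAPs. Of 10 heat shock genes, all tested, 7 were lower and *Hspb1* was higher (log2 ratio 1.46 ± 0.09). Of 10 cell cycle genes, all tested, 5 were lower and none higher, and *Mki67* had no UMI. Barcodes with UMIs of *Ptprc* or *Pecam1* had been left out by the rule, so low values of leukocyte and endothelial genes are a description only. Among markers of other cells, the 5 lymphocyte genes had no UMI, and *Adipoq*, *Alb* and *Sox10* were found in 1, 0 and 0 barcodes. The 4 muscle stem cell genes summed to 90.3, 77.1 and 23.5 CPM, most of it *Des*, and *Pax7* was found in 2 barcodes. The 5 macrophage genes summed to 20.6, 17.5 and 15.7 CPM, most of it *Cd68*, with *Adgre1* at 0. The 4 blood endothelial genes summed to 31.0, 92.3 and 163 CPM, most of it *Kdr*, while *Cdh5* was found in 1 barcode. The 6 FAP genes outside the rule were all lower but summed to 1148, 1541 and 1816 CPM, most of it *Clec3b*, at 929, 1384 and 1568 CPM. *Pdgfrb* was found in 3 mesothelial barcodes and *Dpep1* in 5. The part of these cells in the library differences below was not tested.

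**Figure D3:**
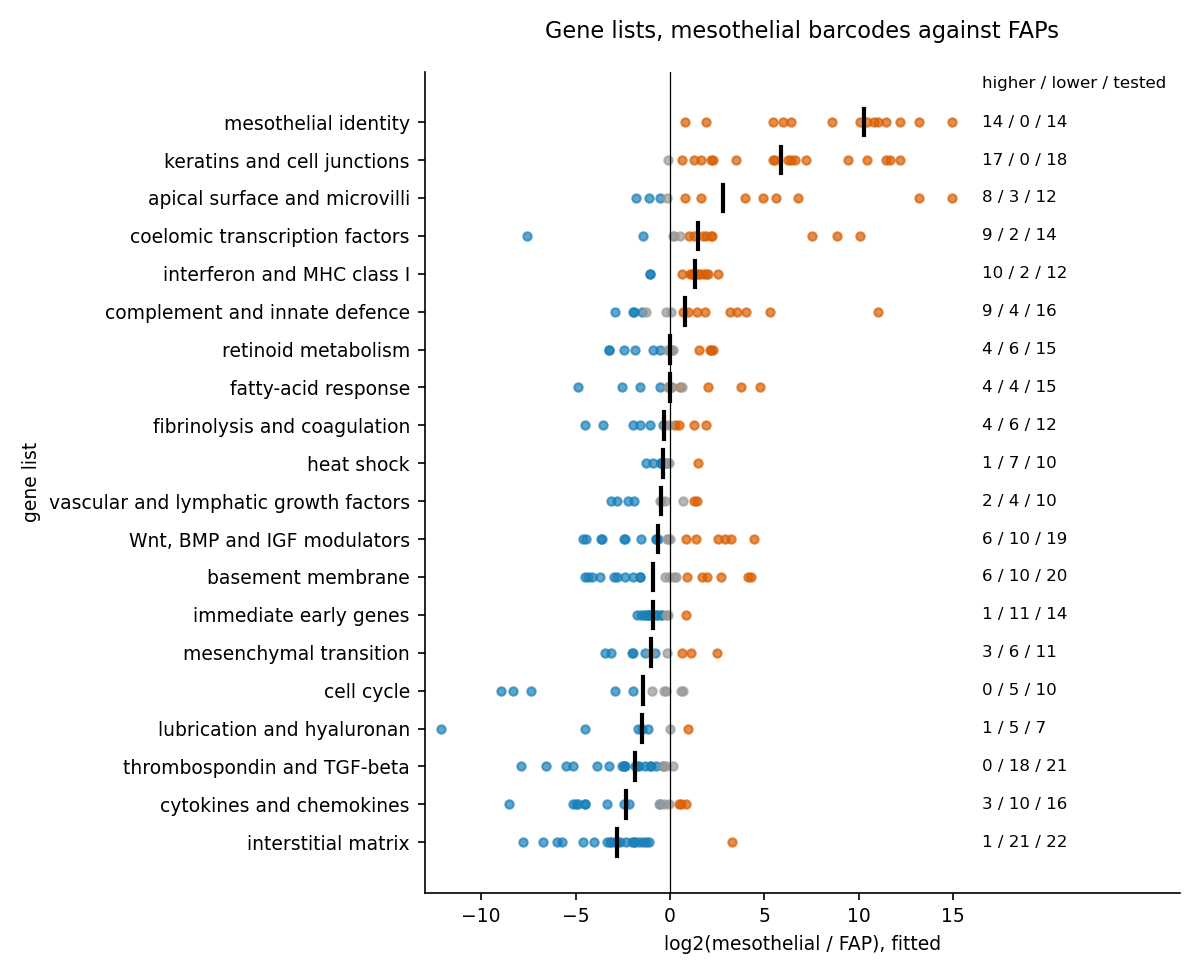
Fitted log2 ratio of mesothelial barcodes over FAPs for each tested gene of 20 lists (points, orange higher and blue lower at FDR 0.05, gray not passing), with the list median as a black bar and the counts of genes higher, lower and tested at the right. Identity and keratin lists lie to the right of 0, and the interstitial matrix list to the left with *Fmod* as its only higher gene.

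Mesothelial barcodes also varied among themselves. For each of the 1457 genes at 100 CPM or more in the summed class, the share of UMIs held by the 16 barcodes with the most was computed, and its median was 31.1%. For the housekeeping gene *Tpt1* the share was 20.9%. The most uneven genes were *Cxcl13* (100%), *Fn1* (86.5%), *Gsn* (79.0%), *Enpp2* (73.9%), *Prg4* (65.9%) and *Gpx3* (64.6%), and *Fmo2* stood at 60.1%. *Fn1* and *Gsn* stood at 970 and 17159 CPM in FAPs, against 135 and 518 CPM in the mesothelial class, and the part of FAP RNA in their unevenness was not tested. *Enpp2* stood at 171 CPM in FAPs and at 462 CPM in the mesothelial class.

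*Enpp2* encodes autotaxin, the secreted enzyme that makes lysophosphatidic acid, and its barcodes were looked at after these values were seen. The 16 barcodes with the highest *Enpp2* level held 3051 CPM of it, and the other 145 held 143 CPM. Of these 16, 6 came from WT CD, 9 from WT HFD and 1 from KO HFD. They held *Krt19* at 878 CPM, against 1036 CPM in the other 145. *Upk3b*, which like *Msln* was used to choose the barcodes, stood at 754 and 1453 CPM and is a description only. *Slpi* was found in 2 of the 16 and in 133 of the 145, *Krt18* in 1 of the 16 and in 124 of the 145, and *Msln* in 6 of the 16 and in 138 of the 145. *Fn1* stood at 899 CPM in the 16 and 41.0 CPM in the 145, *Cd74*, the MHC class II invariant chain, at 551 and 125 CPM, and *Apoe* at 2853 and 902 CPM. Of the 16, 4 met the FAP rule as well, among them the WT HFD and KO HFD barcodes with the most *Fn1*. Without the barcodes that met both rules, a choice made after seeing the data, *Fn1* stood at 209.5 CPM in the 12 left and 38.2 CPM in the other 126, *Enpp2* at 2088 and 138 CPM, *Cd74* at 621 and 108 CPM and *Apoe* at 2442 and 830.4 CPM. Of genes high in FAPs, *Gsn* stood at 1533 CPM in the 16 and 393 CPM in the 145 and *Dcn* at 13669 and 9517 CPM, while *Pi16* was found in 1 of the 16 and *Pdgfra* in 4. *Gsn* remained higher without the barcodes that met both rules, at 1835 CPM in the 12, each of which had a UMI of it, and 126 CPM in the other 126. The part of FAP RNA in these values was not tested. The median depth was 12324 UMIs in the 16 and 9664 in the 145.

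Across all 161 barcodes, Spearman's rho of *Slpi* and *Enpp2* levels was -0.52, and it was -0.40 in WT CD, -0.54 in WT HFD and -0.37 in KO HFD. The complement genes *C4b* and *C3* had a rho of 0.59 over all and of 0.60, 0.58 and 0.52 in the libraries, and *C4b* and *Cfb* of 0.52 over all. *Slpi* and *C4b* had a rho of 0.43 over all and 0.20 in KO HFD. These pairs were picked after seeing the values, the barcodes share libraries and the depth of each barcode, and the coefficients are a description.

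**Figure D4:**
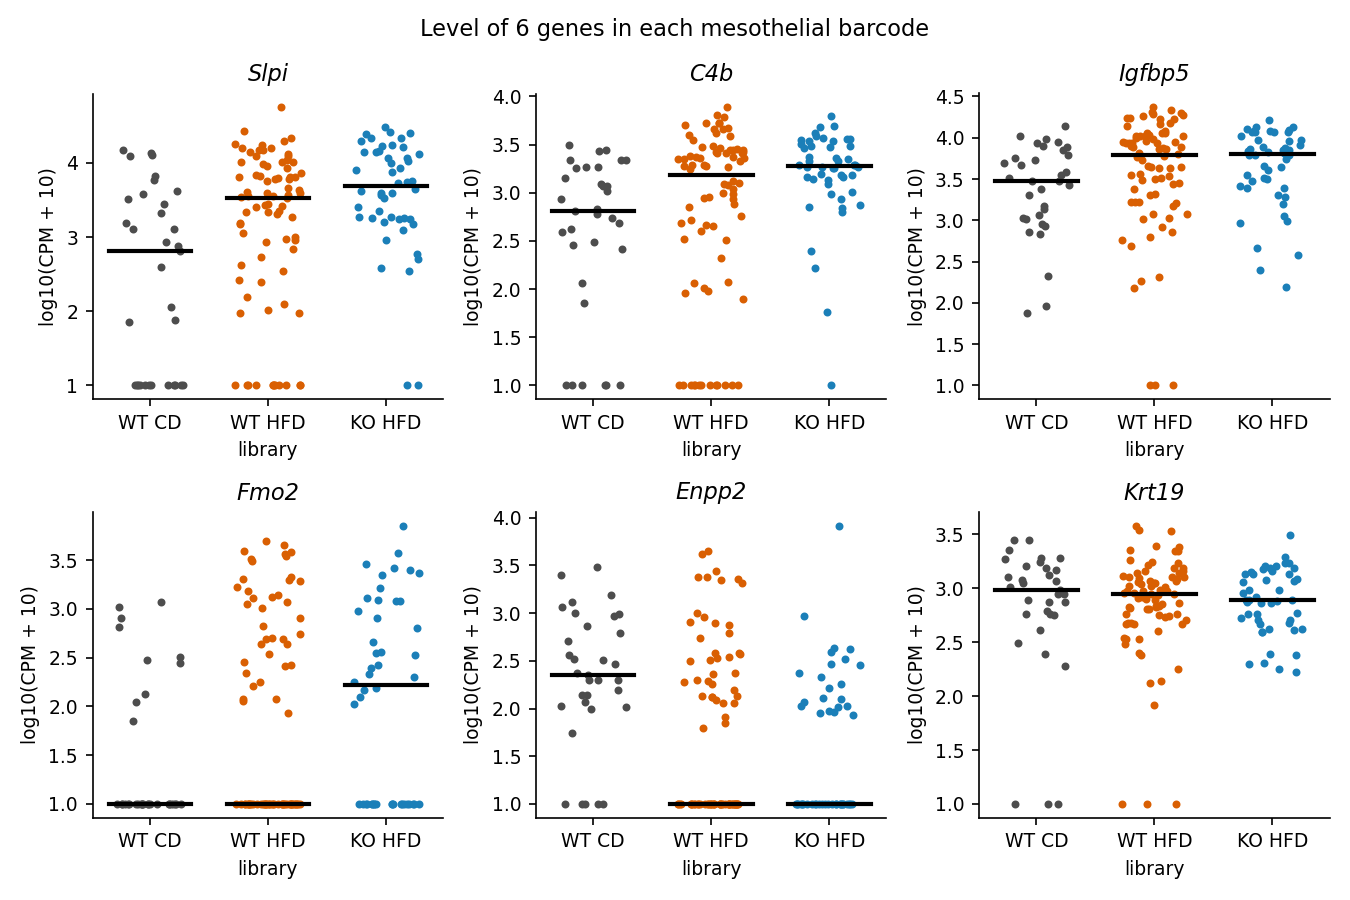
Level of 6 genes in each mesothelial barcode, as log10(CPM + 10), by library (33 WT CD, 80 WT HFD and 48 KO HFD barcodes), with a bar at the median. Points at 1 are barcodes without a UMI. *Slpi*, *C4b* and *Igfbp5* have their lowest medians in WT CD, and *Krt19* has similar medians in the 3 libraries.

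To see how the mesothelium differed between the diets, the summed WT HFD barcodes were compared with those of WT CD. A difference was counted at 2-fold or more among the 1609 genes that reached 100 CPM in one or both libraries. On HFD 24 genes were higher (1.49%) and 5 lower (0.311%), with a median log2 ratio of -0.02 over all of them. In FAPs, where the sums are deeper, 1 of 1485 genes was higher and 10 were lower. Intervals of the ratios below are 95% counting intervals on 1 library each.

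The genes with the most UMIs among those higher on HFD were *Slpi* and *Igfbp5*. The level of *Slpi* in single barcodes ran from 0 to 15009 CPM with a median of 642 in WT CD, from 0 to 55810 with a median of 3387 in WT HFD, and from 0 to 30448 with a median of 4919 in KO HFD. The ranges overlapped, and the upper quartiles were 3206, 8713 and 14009.9 CPM. *Slpi* was found in 21 of 33, 68 of 80 and 46 of 48 barcodes, and with thinning in 54.5, 75.9 and 95.8%. Thinned B cells with a UMI of *Slpi* were 13 of 80 in WT CD, 0 of 38 in WT HFD and 0 of 19 in KO HFD, where the exact upper limits are 9.25% and 17.6%. The summed level was 1.25 higher on the log2 scale in WT HFD than in WT CD (1.15 to 1.35). Without the 16 *Enpp2* barcodes *Slpi* stood at 3096, 6940 and 8907 CPM in the 3 libraries. *Igfbp5* was found in nearly every barcode, with medians of 3019, 6231 and 6332 CPM, and its log2 ratio was 1.12 (1.04 to 1.20). Without the 16 *Enpp2* barcodes *Igfbp5* stood at 4275, 8523 and 7358 CPM, just under 2-fold between the diets. *C4b* had medians of 642, 1530 and 1888 CPM in single barcodes, but its summed level, given above, differed by less than 2-fold between the diets.

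The counting intervals of the 2 libraries were separate for 202 of the 1609 genes, rises and falls together. These intervals treat all UMIs alike and do not cover differences among barcodes. The 8 largest rises outside counting error were *Cxcl13*, *Krt14*, *Hmcn1*, *Prg4*, *Fmo2*, *Cd55*, *Prlr* and *Fabp4*. *Fmo2*, a flavin-containing monooxygenase, stood at 150 CPM in WT CD, 582 in WT HFD and 721 in KO HFD, and was found in 10, 39 and 28 barcodes (log2 ratio of WT HFD over WT CD 1.96, 1.56 to 2.38). *Prlr*, the prolactin receptor, stood at 41.3, 134 and 155 CPM (1.70, 0.94 to 2.56). *Prg4*, lubricin, the boundary lubricant of joints and serous surfaces, stood at 36.1, 147 and 139 CPM (2.03, 1.23 to 2.94). For these 3 genes the WT CD level lay below the levels of both HFD libraries beyond counting error, and leaving out the barcode with the most UMIs of the gene in each library left log2 ratios of 2.10, 2.33 and 2.06. FAPs held more *Prg4* than the mesothelial barcodes, at 248, 398 and 294 CPM, and without the barcodes that met both rules its log2 ratio went from 2.03 to 1.34.

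*Krt14*, a keratin of basal epithelial cells, had no UMI in the 33 WT CD barcodes, was found in 20 of 80 WT HFD barcodes at 113 CPM and in 3 of 48 KO HFD barcodes at 31.4 CPM. No FAP of any library had a UMI of it. With 3 counts in place of 0 in WT CD it was 14.6-fold higher in WT HFD (log2 ratio 3.87, counting interval from 3.55). For WT CD, 3 counts in place of 0 give a share with a UMI of up to 9.09% (exact Clopper-Pearson upper limit 10.6%), and the WT HFD share was 25%. In KO HFD, 14 of the 16 *Krt14* UMIs came from 1 barcode. Without the top barcode of each library the log2 ratio of KO HFD over WT HFD went from -1.85 to -4.48.

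In other rises 1 barcode held many of the UMIs. *Cxcl13*, a chemokine for B cells, stood at 10.3, 250 and 62.7 CPM in WT CD, WT HFD and KO HFD, but 206 of its 214 WT HFD UMIs came from 1 barcode, and without the top barcode of each library the log2 ratio went from 4.60 to 0.85. The same WT HFD barcode held 75 of the 90 UMIs of *Fabp4*, the fatty acid-binding protein of adipocytes and endothelium, 55 of the 148 UMIs of *Cd55* and 74 of the 147 UMIs of *Fn1*. *Cd55* stood at 46.5, 173 and 90.1 CPM, and its log2 ratio went from 1.90 to 1.42 without the top barcode of each library, to 0.86 with at least 2 marker UMIs and to 0.82 with each of the 3 markers, the last 2 under 2-fold. The WT HFD barcode had 6 marker UMIs, 3 of *Pdgfra* and 98 of *Dcn*, met the FAP rule as well and was not called a doublet. Without the barcodes that met both rules, 1 UMI of *Cxcl13* was left in WT CD and 1 in WT HFD, too few for a ratio, and the log2 ratio of *Fabp4* turned from 1.65 to -1.61. Without the top barcode of each library *Fabp4* kept a log2 ratio of 1.17, from 15 UMIs in WT HFD and 3 in WT CD.

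The largest falls on HFD were *Ecrg4*, *Sult1a1*, *Klhl24*, *Lcn2*, *Ifi205*, *Oxct1*, *Sfrp2* and *Amotl2*. Of these, *Oxct1*, *Sfrp2* and *Amotl2* stayed under 2-fold. *Ecrg4*, a secreted peptide precursor, stood at 155 CPM in WT CD, 52.6 in WT HFD and 108 in KO HFD (log2 ratio of WT HFD over WT CD -1.56, -2.15 to -0.98). *Sult1a1*, a sulfotransferase, stood at 114, 39.7 and 64.7 CPM (-1.52, -2.21 to -0.84). *Lcn2* stood at 248, 123 and 270 CPM (-1.01, -1.43 to -0.60). It lay close to 2-fold and under it in several alternatives, the smallest change being -0.81 without the barcodes that met both rules. *Ifi205*, also close to 2-fold at -1.01, went to -0.74 without the top barcode of each library. The levels of *Ecrg4* and *Lcn2* in KO HFD lay above those of WT HFD. For *Klhl24*, 32 of the 46 WT CD UMIs came from 1 barcode, and without the top barcode of each library the levels were 38.0 and 37.9 CPM (log2 ratio -0.01). For *Sfrp2*, a Wnt antagonist, 29 of 52 WT CD UMIs came from 1 barcode, and without the top barcode of each library the log2 ratio went from -0.91 to -0.11, while without the barcodes that met both rules it was -1.68.

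By list, few genes reached 2-fold between the diets. Of the 12 interstitial matrix genes at 100 CPM or more, 1 was higher 2-fold (*Fn1*, from the barcode described above) and none lower, with a median log2 ratio of 0.03. Of 10 complement and defense genes 2 were higher and 1 lower, with a median of 0.38. The 13 identity genes had a median of 0.09, and only *Slpi* reached 2-fold. The 14 immediate early genes had a median of -0.03.

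**Figure D5:**
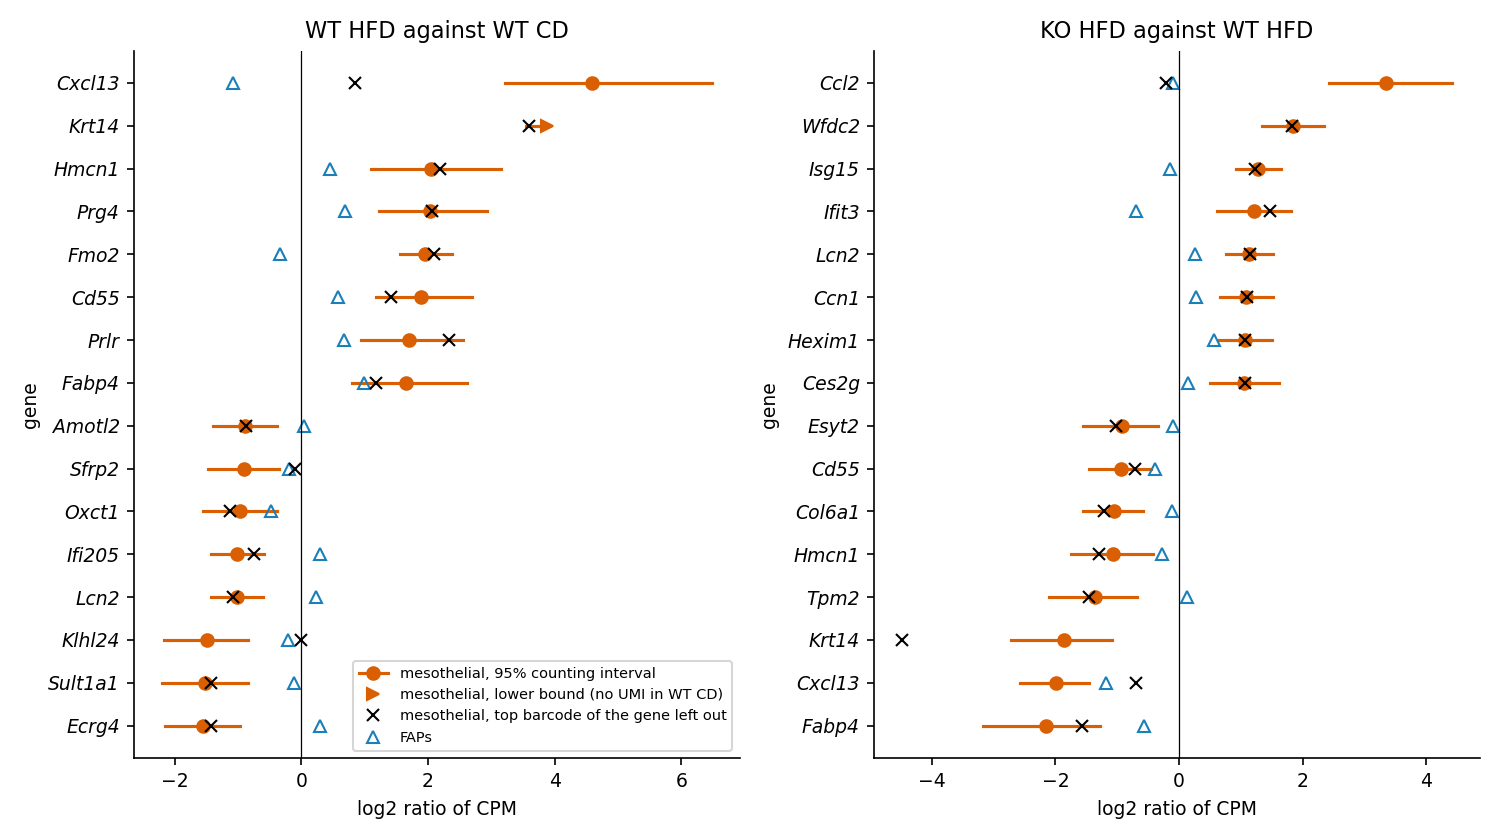
Log2 ratio of CPM in mesothelial barcodes for the named genes of each library comparison (orange points, with 95% counting intervals), with the ratio after the barcode with the most UMIs of the gene was left out of each library (crosses) and the ratio in FAPs (open triangles, where FAPs had UMIs). The crosses of *Cxcl13*, *Klhl24*, *Sfrp2*, *Ccl2* and, in KO HFD against WT HFD, *Krt14* stand far from their points. The arrow for *Krt14*, labeled a lower bound, and the cross of *Cxcl13* at the right are values with 3 counts in place of 0.

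For the comparison of genotypes on the same diet, KO HFD was set against WT HFD over 1600 genes. In the KO library 9 genes were higher 2-fold or more (0.562%) and 6 lower (0.375%), with a median log2 ratio of 0.03, and in FAPs 4 of 1488 were higher and 1 lower. Both comparisons share the WT HFD library. Between the genotypes the counting intervals were separate for 144 of the 1600 genes. The falls were *Fabp4*, *Cxcl13*, *Krt14*, *Tpm2*, *Hmcn1*, *Col6a1*, *Cd55* and *Esyt2*, of which the last 2 stayed under 2-fold. The WT HFD levels of *Fabp4* and *Cxcl13* rested on the barcode described above, and all 32 KO HFD UMIs of *Cxcl13* came from 1 barcode that Scrublet called a doublet. With each of the 3 markers the log2 ratio of *Fabp4* turned from -2.16 to 0.52, whereas it was -1.43 without the barcodes that met both rules and -4.08 without doublets. *Cxcl13* with each of the 3 markers had 1 UMI in WT HFD and 0 in KO HFD, too few for a ratio. *Col6a1*, a chain of collagen VI, stood at 129 CPM in WT CD, 192 in WT HFD and 92.1 in KO HFD, in 19 of 33, 55 of 80 and 24 of 48 barcodes (log2 ratio of KO HFD over WT HFD -1.06, -1.56 to -0.58). *Tpm2*, a tropomyosin, stood at 155, 111 and 43.1 CPM (-1.36, -2.10 to -0.68). *Hmcn1*, hemicentin, a basement membrane protein, stood at 25.8, 106 and 50.9 CPM (-1.06, -1.75 to -0.42).

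The rises in KO HFD were *Ccl2*, *Wfdc2*, *Isg15*, *Ifit3*, *Lcn2*, *Ccn1*, *Hexim1*, *Ces2g* and, after these 8, *Ecrg4* (log2 ratio 1.04). *Wfdc2*, a secreted protein with the whey acidic protein domain that *Slpi* also has, stood at 61.9, 59.6 and 214 CPM in WT CD, WT HFD and KO HFD and was found in 12 of 33, 24 of 80 and 28 of 48 barcodes (log2 ratio 1.84, 1.35 to 2.35). The interferon-induced *Isg15* stood at 160, 126 and 308 CPM (1.29, 0.92 to 1.65) and *Ifit3* at 49.0, 49.1 and 114 CPM (1.21, 0.61 to 1.82). Of the 7 interferon and MHC class I genes at 100 CPM or more these 2 were higher 2-fold and none lower, with a median of 0.04 for the list. *Ccn1*, a matricellular protein, stood at 119, 97.0 and 206 CPM (1.09, 0.66 to 1.52). For *Ccl2*, a chemokine for monocytes, 64 of the 67 KO HFD UMIs came from 1 barcode, which Scrublet called a doublet, and the log2 ratio went from 3.35 to -0.22 without the top barcode of each library. The interstitial matrix list had a median log2 ratio of -0.26 over 12 genes, with *Col6a1* the only one past 2-fold.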

How the data were processed

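Single-cell RNA-Seq (10x Genomics 3′ v3.1) of 3 libraries was used. The authors aligned reads to mm10 with Cell Ranger (6.1.1 per the submitters' processing notes) and deposited unnormalized UMI counts per gene for the barcodes called as cells. All barcodes were kept. Members and gene lists were chosen with earlier results of these data known. Counts of a class were summed per library and divided by all its UMIs (CPM), with exact Poisson intervals, and shares carry Clopper-Pearson intervals, both at 95% and for counting error only. Classes were tested with edgeR 4.0.16 (R 4.3.3; filterByExpr, TMM, ~library + class, Benjamini-Hochberg FDR of 0.05), tested first on simulated data. DESeq2 1.42.0 was an alternative. Clustering used scanpy 1.11.5 (2000 variable genes, 30 components, 15 neighbors, resolution 1) and leidenalg 0.10.2, and Scrublet an expected rate of 0.06, which called 151 of 12275 barcodes. Where a sum was 0, ratios used 3 counts in its place. Named genes were the rule genes, *Thbs1*, the 15 largest and 10 smallest class ratios among genes passing FDR with 1 direction in all libraries and 100 CPM in the higher class, the 8 largest rises and falls per library comparison at 100 CPM with separate counting intervals, and list members, preferring those with more UMIs. Others named, such as *Enpp2*, were chosen after their values were seen. Promoters are from RefSeq. Genes with close paralogs may share reads. Some list members are not reported here by name. Alternatives are given in the closing section.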

Additional observations from a re-analysis of the deposited data

Results flagged for a closer look

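For 6 named genes the mesothelial barcodes and the FAPs of the same libraries moved in opposite directions beyond counting error. Each group was 1 library, so the difference between the classes was not tested. Between WT HFD and WT CD, *Fmo2* had a log2 ratio of 1.96 in mesothelial barcodes and -0.34 in FAPs, *Ifi205*, an interferon-inducible gene, -1.01 and 0.29, and *Cxcl13* 4.60 and -1.08, the first of these *Cxcl13* values resting on 1 barcode. Between KO HFD and WT HFD, *Isg15* had a log2 ratio of 1.29 in mesothelial barcodes and -0.14 in FAPs, *Ifit3* 1.21 and -0.70, and *Ccl2* 3.35 and -0.10, the *Ccl2* value of the mesothelial barcodes again resting on 1 barcode. Groups of 1 library allow no search for outlying samples.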

How the results depend on the processing

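The 25 named genes of the class comparison kept their direction and passed FDR 0.05 under each of the 14 alternatives, 350 values in all. They had been picked for the most extreme ratios of the same counts. A change of direction was therefore unlikely from the start, and the result does not cover the other genes called. The size of the ratios did move. With each of the 3 markers the log2 ratio of *Muc16* went from 14.92 to 12.31 and that of *Krt19* from 10.46 to 9.21. That of *Clic3* went from 12.78 to 12.94. Without WT CD, without WT HFD and without KO HFD the numbers of genes higher ran from 1447 to 1868 and of genes lower from 1784 to 2196. DESeq2 called 1601 genes higher and 1503 lower, and edgeR without TMM 2634 and 1974. All barcodes of the main Leiden cluster were also counted, a choice made after seeing the data. The shares were then 1.14% in WT CD, 2.33% in WT HFD and 1.17% in KO HFD. Per 100 FAPs the values were 1.63, 4.36 and 2.16.

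The class comparison had the library as a block, and without the block 2120 genes were higher and 2467 lower. For the diets and genotypes no paired analysis was possible because each group is 1 library. For WT HFD against WT CD the counts of genes 2-fold higher and lower were 84 and 34 at a minimum of 50 CPM and 4 and 2 at 200 CPM. The number lower was 3 with at least 5 marker UMIs, 10 with each of the 3 markers, 10 without barcodes meeting both rules, and 3 without the top barcode of each gene. For KO HFD against WT HFD the counts were 41 and 50 at 50 CPM and 5 and 1 at 200 CPM. The number higher was 5 with each of the 3 markers, and the number lower was 12 without doublets and 11 with each barcode weighted alike. Of the values for named genes in these comparisons, 291 stayed within the counting interval, 17 moved past it and 8 turned sign, all of *Cxcl13*, *Fabp4* or *Ccl2*. The log2 ratio of *Cxcl13* on HFD was -0.075 with at least 2 marker UMIs. With each of the 3 markers, and without barcodes meeting both rules, *Cxcl13* had at most 1 UMI in a library and no ratio was given. *Fabp4* on HFD was -0.96 with each of the 3 markers and -1.61 without barcodes meeting both rules, and in KO HFD 0.52 with each of the 3 markers and -4.08 without doublets. *Ccl2* in KO HFD was -1.10 with each of the 3 markers, -0.84 without barcodes meeting both rules, -1.04 without doublets and -0.22 without its top barcode. With 33, 80 and 48 barcodes, genes under 100 CPM rest on few UMIs, and pooled mice leave differences between animals unknown.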
